A study of Mus musculus with 2 samples.

Results

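Erythroid, mast cell and basophil priming genes are genes of mature blood lineages whose transcripts multipotent progenitors can already carry. A set of 10 such genes was followed here, at levels from near the detection limit to among the most abundant messages: the erythroid genes Gata1, Klf1, Zfpm1, Car2, Aqp1 and Cnrip1, and the mast cell and basophil genes Hdc, Cpa3, Fcer1g and Ms4a2. They were taken by symbol from a table of 39017 genes, and each of the 10 had a row. Of these, 9 had 20 or more counts summed over both libraries, the minimum for a ratio, as did 13880 genes of the whole table.

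RNA came from mouse bone marrow sorted as Lin- Sca-1+ c-Kit+ (LSK), a gate that keeps blood stem cells and multipotent progenitors and drops cells with lineage markers. Cells of miR-146a-/- mice formed 1 library from a pool of 6 animals, and cells of WT mice formed 1 library from a pool of 12 animals. All animals were C57BL/6J and 10 to 14 weeks old; the sources used here give neither the sex of the animals nor how the miR-146a-/- allele was made. With 1 library per genotype there is no spread between replicates and no test, so each comparison below is between these libraries and has no replicate check.

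GATA1 is the transcription factor that starts the red cell, megakaryocyte, mast cell and eosinophil programmes, and FOG1, the product of Zfpm1, is its cofactor. KLF1 acts with GATA1 at globin and red cell membrane genes. Mast cells and basophils store histamine and proteases in granules and release them when IgE bound to its Fc receptor is cross-linked. miR-146a, induced by NF-kB, represses adaptor proteins of innate immune receptors.

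The mature microRNA that the mutant animals lack is shown because its seed, bases 2 to 8 in capitals, gives the sequence sought in the members' messages. It is credited to RefSeq on GRCm38.p6 and lies at chr11:43374435-43374456 on the minus strand.
mmu-miR-146a-5p: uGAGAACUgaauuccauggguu
The gene Mir146 itself had 0 counts in both libraries, so the table gives no check of the genotype labels. For each member, the longest 3' untranslated region in the annotation was searched for AGTTCTC, the match to the seed. Of 10 members, 1 held it (10.0%), against 13.6% of 12259 measured protein-coding genes with such a region. The match lay in Ms4a2, starting at base 1874 of 1950 bases, and is shown in capitals. Ms4a2 was under the count minimum that the 12259 genes met, so no measured member held the match.
Ms4a2 site: cacatttgtaaAGTTCTCagaaataaag
Members' regions were short, with a median length of 424.5 bases against 1359 bases for the measured protein-coding genes. In the other members, from the 60 bases of Zfpm1 to the 1758 bases of Aqp1, neither the 7-base match nor the 6-base match to bases 2 to 7 was found.

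The table held 22231389 counts in the miR-146a-/- library and 35069136 in the WT library. Protein-coding genes held 51.5% of miR-146a-/- counts and 81.4% of WT counts, and a single non-coding ribosomal repeat gene, Gm42418, held 27.2% and 2.13%. Levels are therefore given as normalised CPM, the count scaled to the TMM effective library size, a scaling that sets the bulk of genes level, and ratios are miR-146a-/- over WT on the log2 scale. Scaled by total counts, the median of all measured genes was -0.83 in place of -0.01, and 8 of the 9 measured members had a negative ratio. The gates were checked by their own genes. Kit was at 728 normalised CPM in miR-146a-/- cells and 558 in WT cells, and Ly6a, which encodes Sca-1, at 74.6 and 66.8. Of lineage genes, Cd3e and Cd8a had 0 counts in both libraries, and Ly6g had 1 and 1, whereas Itgam, which encodes CD11b, had 950 and 1673. Among T and B cell markers, Cd4 had 68 counts in miR-146a-/- cells and 86 in WT cells. Lck had 255 and 1054, and Cd79b had 263 and 757, so such markers were not all absent.

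Each of the 9 measured members had a higher normalised count in the miR-146a-/- library, by log2 ratios from 0.12 for Car2 to 1.33 for Hdc, and Ms4a2, the member under the minimum, had 1 count in miR-146a-/- and 5 in WT. A gene was called higher when its whole 95% interval, which covers counting error only, lay above 1.5-fold. By that rule 0 of the 9 were higher, against 5.35% of all measured genes, and 0 were lower, against 1.53%. For 8 of the 9 the interval lay above a ratio of 1, as it did for 28.0% of all measured genes. A positive ratio was found for 48.8% of all measured genes and for 59.6% of the 1955 measured protein-coding genes with 20 to 200 counts. The median ratio of the 9 was 0.67, beside -0.01 for all measured genes, 0.25 for measured genes with 20 to 200 counts and 0.18 for the protein-coding genes among these, a class that holds 4 of the 9. The difference between the medians of the members and of all measured genes was 0.68. It was 0.505 with at least 200 counts, which kept 5 members, and 0.502 with WT counts thinned, which kept 8. In bulk RNA, more cells that carry a transcript and more transcript per cell cannot be told apart.

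**Figure D1:**
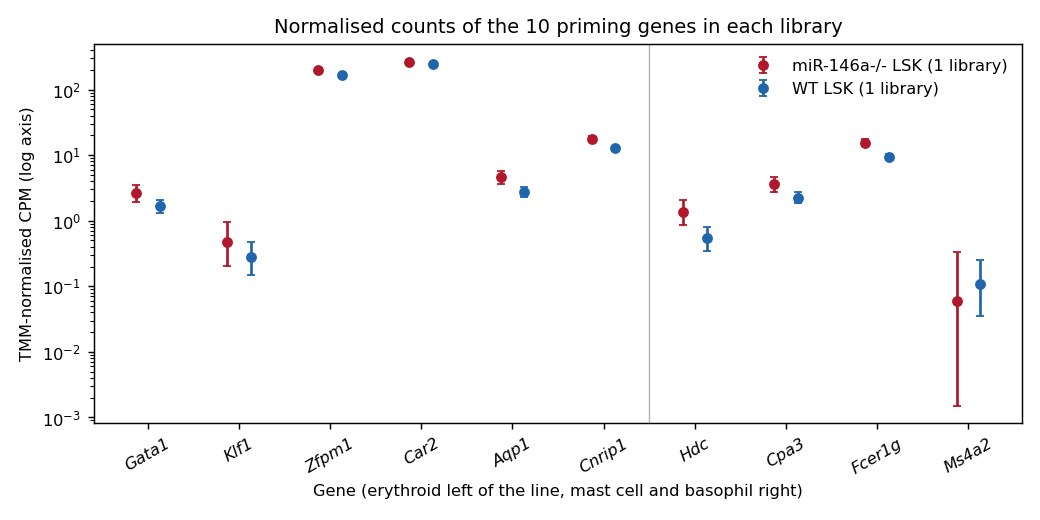
TMM-normalised CPM (log axis) of the 10 genes in the miR-146a-/- library (red) and the WT library (blue), with exact 95% Poisson intervals as bars and 1 library per genotype. Car2 and Zfpm1 lie highest in both libraries, at 165 CPM or more, while Klf1 and Ms4a2 lie below 1 CPM and have overlapping intervals.

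The erythroid transcription factors were followed first. Gata1, on the X chromosome at chrX:7959260-7978071 (GRCm38, minus strand), had 44 counts in the miR-146a-/- library and 78 in the WT library. These are 2.63 normalised CPM (95% Poisson interval 1.91 to 3.53) in miR-146a-/- cells and 1.67 (1.32 to 2.09) in WT cells. The log2 ratio was 0.65 (0.09 to 1.20), or 1.57-fold, and the Poisson intervals of the levels overlapped. Xist, the RNA of the inactive X chromosome, was at 2936 normalised CPM in miR-146a-/- cells and 236 in WT cells, so the pools differ in a sex-linked transcript. The median ratio of 420 measured X-linked protein-coding genes was 0.02.

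Klf1, at chr8:84901928-84905291 on the plus strand, was close to the count minimum, with 8 counts in miR-146a-/- cells and 13 in WT cells. Its levels were 0.478 normalised CPM (0.206 to 0.942) in miR-146a-/- cells and 0.279 (0.148 to 0.477) in WT cells. The ratio of 0.75 had an interval of -0.70 to 2.16, so no difference was detectable at this depth. Klf1 was the 1 measured member whose interval included a ratio of 1.

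Zfpm1, at chr8:122282141-122337251 on the plus strand, was abundant, with 3267 counts in miR-146a-/- cells and 7671 in WT cells. Its levels were 195 normalised CPM (189 to 202) in miR-146a-/- cells and 165 (161 to 168) in WT cells. The ratio was 0.25 (0.19 to 0.31), or 1.19-fold, an interval that lies wholly inside 1.5-fold. Counts for the cofactor thus outnumbered those for Gata1 by 74.3 to 1 in miR-146a-/- cells and by 98.3 to 1 in WT cells. Counts also grow with exon length, which is 3.50 kilobases for Zfpm1 and 2.44 for Gata1. Per kilobase of exon, normalised CPM was 55.8 against 1.08 in miR-146a-/- cells and 47.0 against 0.686 in WT cells.

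The erythroid products differed more in level than in ratio. Car2, which encodes the cytosolic carbonic anhydrase II, at chr3:14886273-14900770 on the plus strand, had 4389 counts in miR-146a-/- cells and 11236 in WT cells. That is 262 normalised CPM (255 to 270) in miR-146a-/- cells and 241 (237 to 246) in WT cells. Its ratio of 0.12 (0.07 to 0.17), or 1.09-fold, was the smallest of the 9. Under total counts Car2 was the 1 member called lower, at -0.70. So were 7077 of all 13880 measured genes, whose median was then -0.83.

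Aqp1, the water channel of the red cell membrane and of endothelium, at chr6:55336432-55348555 on the plus strand, had 77 counts in miR-146a-/- cells and 127 in WT cells. Its levels were 4.60 normalised CPM (3.63 to 5.75) in miR-146a-/- cells and 2.72 (2.27 to 3.24) in WT cells, with intervals that did not overlap. The ratio was 0.75 (0.33 to 1.18), or 1.69-fold. Of 15 endothelial and stromal markers, 9 were measured, and 1, Vwf at 0.79, was higher, beside 5.35% of all measured genes. Vwf is also listed as a megakaryocyte marker. The summed level of the 15 markers was 284 normalised CPM in miR-146a-/- cells and 218 in WT cells. Most of that sum came from Pecam1 and Pdgfrb, with 2200 and 960 counts in miR-146a-/- cells and 4394 and 2530 in WT cells, at ratios of 0.48 and 0.08. Emcn was at 0.51, Tek, which stem cells carry too, at 0.69 and Col1a2 at 1.06, and none of these was called. Endothelial Cdh5 had 3 and 4 counts, and Lepr and Col3a1 had 0 in both. Their part in the Aqp1 value was not tested.

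Cnrip1, whose product binds the cannabinoid receptor CB1, lies at chr11:17051586-17079371 on the plus strand, and had 294 counts in miR-146a-/- cells and 595 in WT cells. Its levels were 17.6 normalised CPM (15.6 to 19.7) in miR-146a-/- cells and 12.8 (11.8 to 13.8) in WT cells, and the ratio was 0.46 (0.26 to 0.67). Of its exon bases, 199 (4.97%) are shared with Plek, the pleckstrin gene on the opposite strand. Plek had 3661 counts in miR-146a-/- cells and 5955 in WT cells, a ratio of 0.78 (0.72 to 0.84), and was called higher. The labels describe the libraries as single-stranded, but the sources used here do not say whether counting used strand. A part of the Cnrip1 count could thus be Plek reads, which was not tested.

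**Figure D2:**
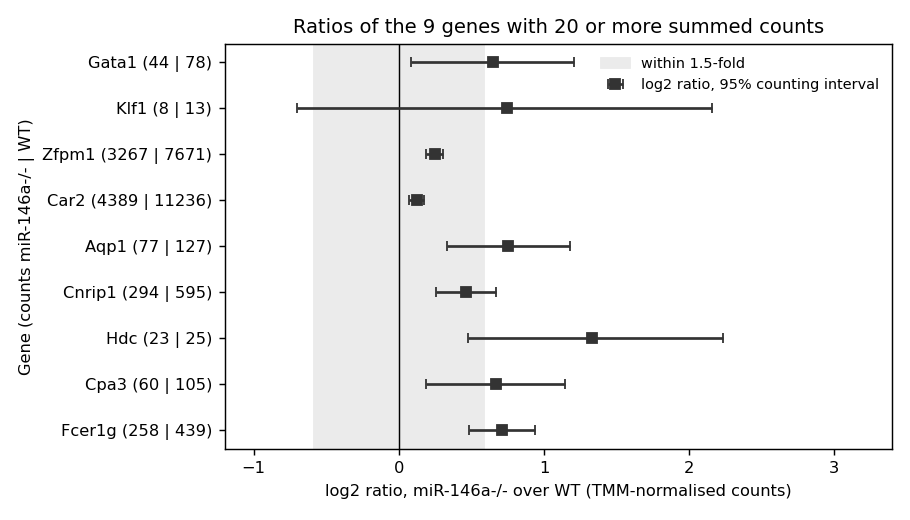
Ratio (log2, miR-146a-/- over WT) of normalised counts for the 9 genes with 20 or more summed counts, with exact 95% Clopper-Pearson counting intervals as bars, and the raw counts of both libraries beside each name. The grey band marks 1.5-fold either way; every square lies right of 0, the bar of Klf1 crosses 0, and each bar reaches into the band.

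The 3 measured mast cell and basophil members had ratios from 0.67 to 1.33, against 0.12 to 0.75 in the 6 erythroid members, ranges that overlapped. Hdc, histidine decarboxylase, the enzyme that makes histamine, lies at chr2:126593667-126619299 on the minus strand. It had 23 counts in miR-146a-/- cells and 25 in WT cells, which are 1.38 normalised CPM (0.872 to 2.06) and 0.536 (0.347 to 0.792). These intervals did not overlap. The ratio of 1.33 (0.48 to 2.24), or 2.52-fold, was the highest of the 9 and lay at percentile 96.9 of all measured genes. Its interval began at 1.39-fold, just short of the 1.5-fold that a call needs.

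Cpa3, carboxypeptidase A3 of mast cell granules, at chr3:20215620-20242181 on the minus strand, had 60 counts in miR-146a-/- cells and 105 in WT cells. Its levels were 3.59 normalised CPM (2.74 to 4.62) in miR-146a-/- cells and 2.25 (1.84 to 2.73) in WT cells. The ratio was 0.67 (0.19 to 1.14), or 1.59-fold.

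Fcer1g encodes the gamma chain that carries the signal of the high-affinity IgE receptor and of several IgG receptors, and macrophages, neutrophils and NK cells use it too. It lies at chr1:171229572-171234365 on the minus strand. It had 258 counts in miR-146a-/- cells and 439 in WT cells, or 15.4 (13.6 to 17.4) and 9.42 (8.56 to 10.3) normalised CPM. The ratio of 0.71 (0.48 to 0.94), or 1.64-fold, was called higher once length and GC content were adjusted for, where it was 0.99. It was also above the weaker limit of an interval excluding a ratio of 1, as were 7 other members, and it was not called under the other 9 settings tried.

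Markers of other cells that use Fcer1g were set beside it. Of all measured genes, 5.35% were higher and 1.53% lower. Of 20 neutrophil and monocyte markers, 16 were measured, 4 were higher (Elane at 2.04, Ly6c2 at 1.75, F13a1 at 1.46, Mpo at 0.66) and 3 were lower (Ltf at -2.80, Ngp at -1.38, S100a9 at -1.24). Their summed level was 796 normalised CPM in miR-146a-/- cells and 637 in WT cells. Most of it came from Mpo (322 and 204), Csf3r (185 and 209) and Prtn3 (125 and 86). Ly6g had 1 and 1 counts, Mmp8 had 4 and 10, and Retnlg had 6 and 11. Of 12 macrophage markers, 8 were measured and 0 were called, with sums of 14.0 and 14.2. Adgre1, which encodes F4/80, had 4 and 17 counts and Marco had 0 in both. Of 16 NK and T cell markers, 7 were measured, 3 were higher (Gzmb at 1.93, Cd247 at 1.52, Cd4 at 1.13) and 0 were lower, with sums of 58.1 and 61.7. Ncr1 had 2 and 1 counts, whereas Nkg7 had 530 and 1602. Of 12 dendritic cell markers, 9 were measured and 0 were called, with sums of 999.6 and 894. Most of these sums came from Flt3 (399 and 467), Runx2 (339 and 221) and Tcf4 (177 and 126). Flt3 is also listed as a stem and multipotent progenitor marker. Siglech had 2 and 5 counts, Xcr1 had 4 and 13, and Clec9a had 6 and 7. The part of such cells in the Fcer1g value was not tested.

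Ms4a2, the beta chain of the same IgE receptor, at chr19:11615523-11623719 on the minus strand, had 1 count in miR-146a-/- cells and 5 in WT cells, or 0.0598 (0.0015 to 0.333) and 0.107 (0.0348 to 0.25) normalised CPM. It had too few counts for a ratio, and the intervals overlapped. Fcer1a, the alpha chain that binds IgE, had 1 count in each library. Of the 3 chains of the receptor, the gamma chain that other receptors share was thus the 1 measured in these cells.

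**Figure D3:**
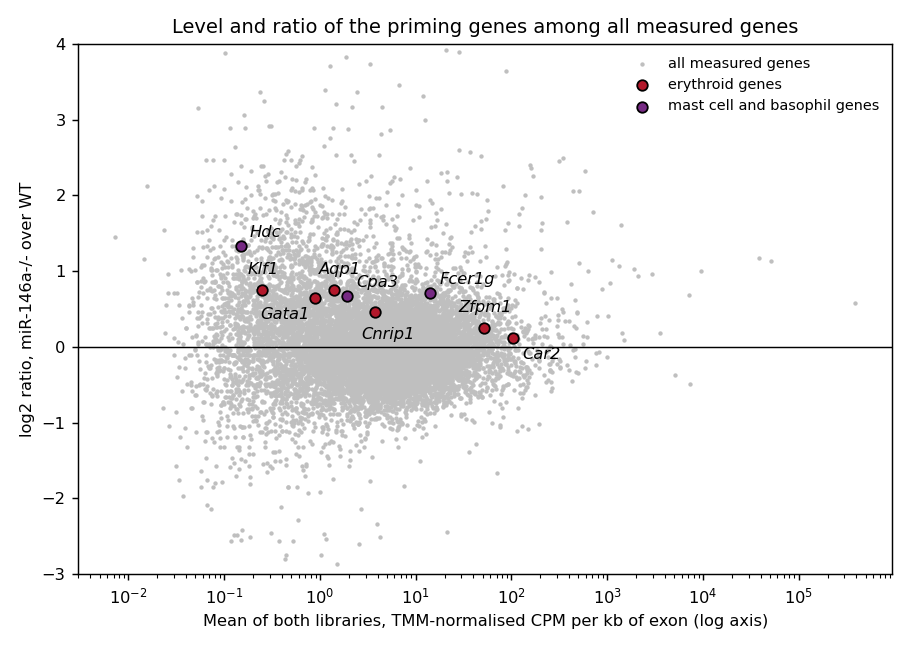
Mean level of both libraries in normalised CPM per kilobase of exon (log axis) against the log2 ratio (miR-146a-/- over WT), for all measured genes (grey), the erythroid genes (red) and the mast cell and basophil genes (purple). The members span the range of levels, with Hdc at the left and Car2 at the right, and all 9 lie above 0; 46 measured genes lie beyond the plotted range of -3 to 4.

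Compared per kilobase of exon, the order of the members was the same in both libraries: Car2, Zfpm1, Fcer1g, Cnrip1, Cpa3, Aqp1, Gata1, Klf1, Hdc and Ms4a2. Car2 was at 108 normalised CPM per kilobase in miR-146a-/- cells and 99.5 in WT cells, which placed it at percentile 98.4 of measured protein-coding genes. Zfpm1 followed at 55.8 and 47.0, and Fcer1g at 17.7 and 10.8. Gata1 was at 1.08 in miR-146a-/- cells and 0.686 in WT cells, percentile 16.7, and Hdc at 0.215 and 0.0839, percentile 3.86. The counting intervals of Cpa3 and Aqp1, and of Klf1 and Hdc, overlapped in both libraries. Those of Aqp1 and Gata1 overlapped in miR-146a-/- cells alone, and those of Hdc and Ms4a2 in WT cells alone. Car2 and Zfpm1 together dominated the summed count of the erythroid members, with 54.3% and 40.4% in miR-146a-/- cells, against 57.0% and 38.9% in WT cells.

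Ratios of counts within a library do not depend on scaling, and 8 pairs were compared. Aqp1 per Car2 count was 0.0175 in miR-146a-/- cells and 0.0113 in WT cells, a log2 difference of 0.63 (0.20 to 1.06). In the other 7 pairs the interval included 0. Gata1 per Gata2 was 0.0118 in miR-146a-/- cells and 0.0147 in WT cells (-0.32, -0.89 to 0.24). Gata1 per Spi1, which encodes PU.1, a factor that opposes GATA1, was 0.0208 and 0.0166 (0.32, -0.25 to 0.88). Between Klf1 and Gata1, Fcer1g and Cpa3, and Cpa3 and Hdc, the differences were 0.13, 0.04 and -0.69. Zfpm1 per Gata1 and Car2 per Gata1 differed by -0.41 and -0.53.

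Promoters were compared because GATA1 and KLF1, which bind known letters, are themselves among the members. RefSeq promoters on GRCm38.p6, from 250 bases before to 50 after the start site, were matched for 9 of the 10 members, without Car2. The GATA letters AGATAA and the same with a first T, a last G or both, on either strand, occurred in 4 of the 9, against 18.1% of 9735 promoters of measured protein-coding genes and 30.2% of all 27025 promoters. A window of 30 bases around 1 match in each is shown for its position, with the match in capitals.
Klf1, chr8:84901890-84901919, plus strand: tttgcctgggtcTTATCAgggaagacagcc
Hdc, chr2:126618882-126618911, minus strand: caggggcagggaTGATAGagggctctttta
Cpa3, chr3:20242210-20242239, minus strand: agctgttcgtcgAGATAAaagctgaggtat
Ms4a2, chr19:11623739-11623768, minus strand: cagcctggagacTTATCTgacaagtaggtt
Ms4a2, which was under the count minimum that the measured genes met, held 3 such matches and the others 1 each. The KLF letters CCNCNCCC, on either strand, which also fit GC boxes bound by SP1, occurred in 4 of the 9 (Gata1, Zfpm1, Aqp1 and Hdc), against 69.0% of the same 9735 promoters. Gata1 held 3, of which the one that holds CACCC is shown.
Gata1, chrX:7967947-7967976, minus strand: cccctgcactgCCCCACCCactggggcacc
Promoters with the GATA letters were poorer in G and C (41.0 to 51.3%) than the other 5 (55.7 to 73.7%), and that of Zfpm1 had 37 CpG and 4 matches to the KLF letters. The 4 members with the GATA letters had from 6 to 165 summed counts, and 3 of them were measured, at ratios of 0.67 to 1.33. The other 5 had ratios from 0.25 for Zfpm1 to 0.75 for Aqp1, so the ranges overlapped. Aqp1 and Fcer1g (0.71), without the letters, were above Cpa3 (0.67), which has them. A match is a description of letters, not of a site in use.

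The other genes of these programmes came from lists, to be read beside all measured genes, of which 5.35% were higher and 1.53% lower. Of measured genes with 20 to 200 counts, 301 of 3152 were higher and 45 lower. Among early erythroid progenitor genes, 28 of 35 were measured, 7 were higher, 1 was lower, and the median was 0.30. Those higher were Sphk1 (2.08), Mfsd2b (1.88), Atp1b2 (1.74), Ctse (1.26), Nfia (0.95), Apoe (0.89) and Sox6 (0.83). Sphk1 makes sphingosine 1-phosphate and Mfsd2b exports it from red cells and platelets, Ctse encodes cathepsin E, Nfia and Sox6 are transcription factors, and Apoe encodes an apolipoprotein. Mfsd2b had 135 counts in miR-146a-/- cells and 102 in WT cells, Atp1b2 had 27 and 22, and Sphk1 had 13 and 8. The gene lower was Tmem14c (-0.88), which serves haem synthesis in mitochondria. The erythropoietin receptor Epor had 9 and 18 counts (0.46, -0.86 to 1.71), and the transferrin receptor Tfrc was at 0.06 (-0.09 to 0.21).

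Late erythroid genes divided into globin and several red cell membrane genes with few counts and others that were well covered. Of 30 listed, 17 were measured, 0 were higher, 1 was lower and the median was -0.02. Their summed level was 466 normalised CPM in miR-146a-/- cells and 440 in WT cells. Most of it came from genes that many cell types use, led by the membrane skeleton gene Epb41 with 2799 counts in miR-146a-/- cells and 6746 in WT cells (0.21, 0.15 to 0.27). The mitochondrial iron importer Slc25a37 had 1261 and 3141 counts (0.16), and Bnip3l, which acts in mitochondrial clearance, had 891 and 2252 (0.14). Alas2 and Slc4a1, which mark haemoglobin-making cells, had 0 counts in both libraries. Hba-a1 had 4 and 2 counts and Hba-a2 2 and 0, near-identical copies whose reads the counting could split. Hbb-bt had 17 counts in miR-146a-/- cells and 78 in WT cells (-0.71, -1.57 to 0.05), and Hbb-bs had 13 and 16 (1.14, 0.00 to 2.33).

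The partners of GATA1 divided in another way. Of 33 listed, 32 were measured, 2 were higher, 0 lower, and the median was 0.07. Gata2, the GATA factor of stem cells and mast cells, had 3735 counts in miR-146a-/- cells and 5306 in WT cells, a ratio of 0.97 (0.91 to 1.03), and the repressor Bach2 was at 0.85. Gata2 belongs to the mast cell and basophil lists as well. The complex that GATA1 joins on DNA was near 0, with Tal1 at -0.08, Lyl1 at -0.19 and Lmo2 at 0.04. Of the NuRD subunits that FOG1 recruits, Mbd3 (-0.57) and Hdac2 (-0.46) were the lowest of the list and were not called. Other subunits did not share this direction, with Gatad2b at 0.59 (0.51 to 0.67), Mta1 at 0.14 and Chd4 at -0.03, also not called.

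Mast cell genes had 14 of 28 measured, with 3 higher, 0 lower and a median of 0.47. Those higher were Gata2, serglycin (Srgn, 0.72, 0.68 to 0.75), the granule proteoglycan, and Gzmb, with 13 and 9 counts. Gzmb is also listed as an NK and T cell marker. Srgn was at 591 normalised CPM in miR-146a-/- cells and 360 in WT cells. Mature mast cell proteases were close to absent: Tpsab1, Mcpt1 and Mcpt2 had 0 counts in both libraries, Mcpt4 had 1 and 3, and Cma1 had 3 and 2. Basophil and eosinophil genes had 15 of 26 measured, with 2 higher, 0 lower and a median of 0.47. These were Gata2 and the activation antigen Cd69 (2.03), which many leukocytes carry. The basophil protease Mcpt8 had 13 counts in miR-146a-/- cells and 22 in WT cells (0.70, -0.39 to 1.77), and Prss34 had 0 and 14. Eosinophil granule genes Prg2 (7 and 35 counts) and Epx (2 and 15 counts) were also low, with Prg2 at -0.82 (-2.26 to 0.35). Kit, which both LSK cells and mast cells use, was at 0.38.

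**Figure D4:**
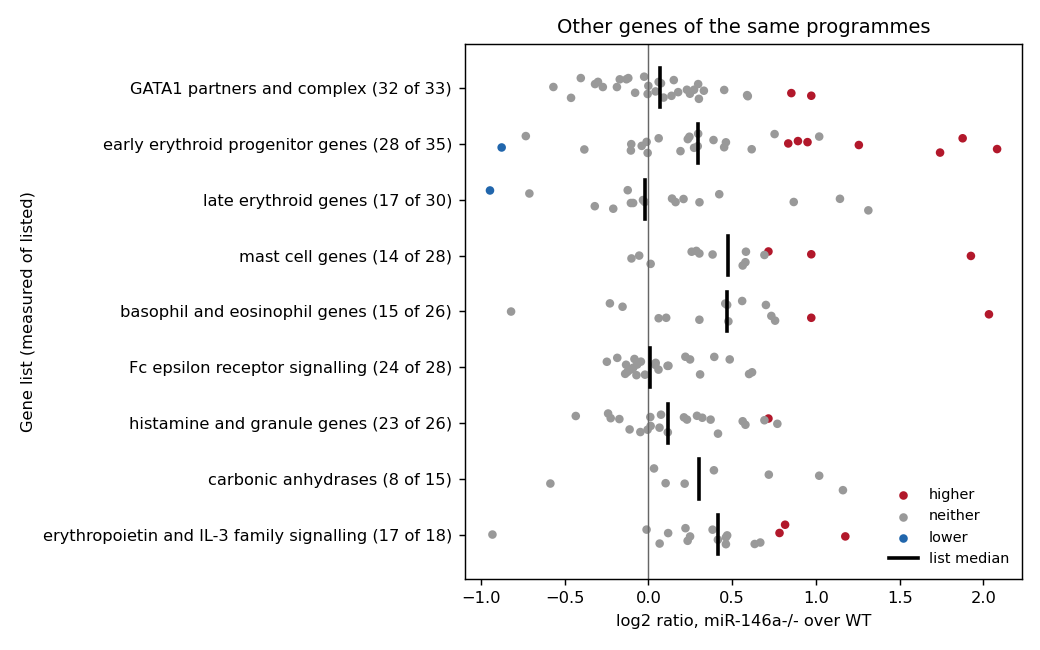
Log2 ratio of miR-146a-/- over WT for the measured genes of 9 lists, 1 point per gene, red where called higher, blue where called lower and grey otherwise, with the list median as a black bar; the vertical spread of points is for legibility. The early erythroid list holds the most red points, and late erythroid genes and IgE receptor signalling have medians near 0.

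Genes that act beside the members in the same steps were mostly not called, as were 12926 of all 13880 measured genes. For histamine and granule genes, 23 of 26 were measured, 1, Srgn, was higher, 0 lower, and the median was 0.12. Slc18a2, the vesicle transporter that loads histamine, was at 0.56 (0.44 to 0.68), and the histamine receptor Hrh2 at 0.77 (0.55 to 0.99). For IgE receptor signalling, 24 of 28 were measured, 0 were called and the median was 0.01. The adaptors Gab2 (0.62) and Lcp2 (0.60) were at the upper end and the phosphatase Ptpn6 (-0.25) and Prkcb (-0.19) at the lower, with the kinase Syk at 0.06. For erythropoietin and IL-3 family signalling, 17 of 18 were measured, 3 were higher, 0 lower, and the median was 0.41. Those 3 were Csf2rb2 (1.18), the beta chain of the mouse IL-3 receptor, the adaptor Gab1 (0.82) and the kinase Pim1 (0.78). Csf2rb2 is a near copy of Csf2rb (0.63), so reads may be split between them.

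Relatives of Car2 and Aqp1 were sparse. Of 15 other carbonic anhydrases, 8 were measured and 0 were called, with a median of 0.30. Car7 (1.16) and Car1 (1.02), the red cell isoform, were highest, and Car11 (-0.58) and Car9 (0.03) lowest. Of 10 other aquaporins, 2 were measured, Aqp9 at -0.10 and Aqp11 at 0.06.

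Markers of neighbouring progenitor states completed the comparison, again beside all measured genes, of which 5.35% were higher and 1.53% lower. Megakaryocyte markers, whose lineage also needs GATA1 and FOG1, had 11 of 15 measured, with 3 higher (Gp1ba at 1.32, Gp9 at 1.26, Vwf at 0.79), 0 lower and a median of 0.57. Stem and multipotent progenitor markers had 21 of 21 measured, with 1 higher, Prdm16 at 0.71, 0 lower and a median of 0.35. Their intervals lay above a ratio of 1 for 14 and below it for 5, among them Cd48 (-0.52) and Procr (-0.39). Of all 13880 measured genes, 3893 lay above and 4032 below by that limit. B and plasma cell markers had 4 of 12 measured, with 0 higher and 1 lower, Jchain at -1.35. Whether the mix of progenitors differed between the pools was not tested.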

How the data were processed

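The authors deposited whole-number read counts per Ensembl gene, not normalised. Per the file headers, alignments included junctions placed on the genome and duplicates were flagged. Per the submitters' processing notes, STAR 2.5.3a, Salmon 0.9.0 and mm10 were used, without roles; the counter, its strand setting and its annotation are not given. Per the labels' protocols, total RNA was ribodepleted. GENCODE M21 on the same assembly gave a symbol for 37693 of 39017 identifiers.

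TMM effective sizes came from edgeR 4.0.16 in R 4.3.3 over genes with at least 20 summed counts. With 1 library per genotype its quasi-likelihood test could not be run, so no p-value is given. A scaled prior count of 0.5 entered each log2 ratio. Intervals are exact at 95%: Clopper-Pearson for ratios, Poisson for levels and the conditional odds ratio for pairs of genes. They hold counting error alone, and without molecular identifiers reads need not be separate molecules. Higher and lower mean an interval wholly beyond 1.5-fold. Steps were tested on simulated data, with Python 3.11.15 and scipy 1.17.1.

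The members and the 18 lists were chosen with earlier results of these data known. Named genes are the members and, per list, genes called and those highest, lowest or most abundant; others (defining markers, genes of the same complex or step, neighbours) were chosen after their values were seen. A few listed genes are not reported here. The 11 alternatives were scaling by DESeq2 1.42.0, total counts, upper quartile or protein-coding genes, no count filter, 200 counts, a prior of 5, 2-fold, an interval excluding 1, a length and GC adjustment, and thinned WT counts.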

Additional observations from a re-analysis of the deposited data

How the results depend on the processing

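Each of the 9 ratios stayed positive under the 10 alternatives other than total counts, where the member could be given one. They ran from 0.06 to 0.30 for Car2 and from 1.14 to 1.47 for Hdc. The 2-fold limit and the interval excluding 1 change only the call, so by construction they left the ratios as they were. Under total counts the members' median was -0.15, with 1 member lower. Of 162 measured list genes, 2 were then higher and 63 lower, beside 140 higher and 7077 lower of all 13880 measured genes. The main counts over the 162 distinct list genes were 15 higher and 2 lower, beside 742 and 212 of all 13880. With at least 200 counts 5 members remained above the minimum and the median was 0.50. With thinned WT counts Klf1 dropped out and it was 0.49. With the length and GC adjustment the median was 0.80, with 1 member higher and 0 list genes lower. Of all 13710 genes then compared, 777 were higher and 136 lower. The cause of these shifts was not tested. With no count filter 4 list genes were lower, beside 322 of all 20304 genes. Beyond 2-fold, 4 list genes were higher and 0 lower, beside 294 and 42 of all measured genes, fewer by construction. With an interval excluding 1, 8 members were higher, and 81 list genes were higher and 25 lower. Of all 13880 measured genes, 3893 were higher and 4032 lower by that rule. No paired analysis was possible because each genotype has 1 library. Depth limits Klf1, Hdc and Ms4a2 most.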

Other observations

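Genes within 100 kb of the members were listed for position alone. They were chosen after their values were seen. Of 49 distinct measured neighbours, 2 were higher and 0 lower, with a median log2 ratio of -0.10. The 2 were Plek, which overlaps Cnrip1, and Junb, an immediate early factor near Klf1, at 1.29 (1.25 to 1.33) with 11219 counts in miR-146a-/- cells and 12798 in WT cells. The other measured neighbours of Klf1 had ratios from -0.62 for Gadd45gip1 to -0.04 for Calr.

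Car2 lies beside Car1 and Car3 on chromosome 3, whose ratios of 1.02 (0.23 to 1.82) and 0.72 (0.34 to 1.09) were above the 0.12 of Car2. Car3 had 97 counts in miR-146a-/- cells and 164 in WT cells. Beside Ms4a2, the related genes Ms4a3 and Ms4a6b were at 0.54 (-0.71 to 1.73) and 0.45 (0.25 to 0.65), and Ms4a6b had 309 counts in miR-146a-/- cells and 630 in WT cells.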
